A study of Mus musculus with 4 samples.

Results

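The 10 genes described here encode heat shock factor 1 and the main chaperones of the heat shock response. They were chosen by symbol (*Hsf1*, *Hspb1*, *Hspa1a*, *Hspa1b*, *Hspa8*, *Hsp90aa1*, *Hsp90ab1*, *Hspd1*, *Hspe1* and *Hsph1*), and all 10 were found among the 17559 genes listed in the deposited files. RNA-seq libraries came from lymph node (LN) CD8+ T cells of C57BL/6 mice with the OT-I transgene, which encodes a T cell receptor for an ovalbumin peptide. Cells of above 95% purity were activated for 2 d on plates coated with antibodies to CD3 (1 µg/ml) and CD28 (2 µg/ml), with IL-2 at 10 ng/ml, and kept for a further 2 d in IL-2 alone. The 2 control libraries had a control treatment, also of 12 h, that the labels do not describe further. The 2 NaBu libraries were from cells exposed to 1 mM NaBu (sodium butyrate, which inhibits histone deacetylases and is the salt of a short-chain fatty acid) for 12 h. The comparison asks how this exposure altered transcript levels in activated CD8+ T cells. Because the cells came from mice with a transgenic receptor and were grown in culture, the groups model activated cells of 1 transgenic line in culture.

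Heat shock factor 1 is the transcription factor that, on protein damage, forms trimers and binds inverted repeats of the triplet GAA in the promoters of chaperone genes. HSP70 proteins bind unfolded segments in ATP-driven cycles, HSP110 proteins such as the product of *Hsph1* exchange their nucleotide, HSP90 proteins mature kinases and receptors, and small heat shock proteins hold unfolding proteins in solution. Of the 10 genes, *Hspd1* and *Hspe1* encode HSP60 and HSP10, the chaperonin and co-chaperonin of the mitochondrial matrix, so the label cytosolic does not cover these members. *Hspa8* and *Hsp90ab1* are known as the constitutive cytosolic forms, *Hspa1a*, *Hspa1b* and *Hsp90aa1* as the stress-inducible ones, and dividing lymphocytes carry the constitutive forms at high levels.

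The promoter sequences are shown first. Among the members with a promoter sequence available, genes that rose and genes that did not both carry matches to the factor's recognition sequence. RefSeq windows on GRCm38.p6 (the mm10 assembly) reach from 250 bases before to 50 bases after each annotated start. They matched 6 of the 10 members: *Hspa1a*, *Hspa1b*, *Hspb1*, *Hspd1*, *Hspe1* and *Hsph1*. No window was available for *Hsf1*, *Hspa8*, *Hsp90aa1* and *Hsp90ab1*, all of which were called lower, so these were not searched. The motifs searched were GAANNTTC and TTCNNGAA, each of which reads the same on both strands, and their 3-unit extensions GAANNTTCNNGAA and TTCNNGAANNTTC, which are each other's reverse complement and contain the shorter motifs. The 250 bases before the start are given 5′ to 3′ on the strand of the gene, with matches to the 2-unit motifs in capitals, for *Hspa1a* (chr17:34972157-34972406, minus strand), *Hspb1* (chr5:135887669-135887918, plus strand), *Hspe1* (chr1:55087898-55088147, plus strand) and *Hsph1* (chr5:149636316-149636565, minus strand).
Hspa1a: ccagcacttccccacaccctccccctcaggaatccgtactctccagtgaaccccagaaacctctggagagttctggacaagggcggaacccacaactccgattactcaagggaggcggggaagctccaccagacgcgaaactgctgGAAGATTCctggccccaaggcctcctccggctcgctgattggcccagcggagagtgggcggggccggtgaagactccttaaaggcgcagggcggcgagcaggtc
Hspb1: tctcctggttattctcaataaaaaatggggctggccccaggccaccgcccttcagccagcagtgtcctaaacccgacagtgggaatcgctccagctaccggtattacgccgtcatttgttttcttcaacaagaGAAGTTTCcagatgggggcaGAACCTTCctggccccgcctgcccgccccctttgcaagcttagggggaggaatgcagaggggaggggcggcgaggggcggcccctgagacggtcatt
Hspe1: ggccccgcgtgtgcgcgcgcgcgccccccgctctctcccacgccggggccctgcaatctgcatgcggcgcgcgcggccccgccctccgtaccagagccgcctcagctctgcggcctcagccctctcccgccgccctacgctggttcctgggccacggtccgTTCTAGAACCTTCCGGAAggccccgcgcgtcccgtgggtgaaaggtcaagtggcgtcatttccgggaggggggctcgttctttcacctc
Hsph1: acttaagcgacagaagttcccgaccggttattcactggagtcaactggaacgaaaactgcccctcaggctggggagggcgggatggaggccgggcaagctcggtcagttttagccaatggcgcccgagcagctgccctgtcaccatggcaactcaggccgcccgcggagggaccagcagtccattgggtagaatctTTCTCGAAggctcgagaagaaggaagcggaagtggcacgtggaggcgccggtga

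All 6 matched members held a 2-unit motif in a 300-base window, against 17.0% of the 27025 genes of the promoter table and 19.6% of the 97 matched genes of the other chaperone lists. A 3-unit motif was found for *Hspd1*, *Hspe1* and *Hsph1*, against 0.662% of all genes. These 6 are not independent sequences. The 250 bases before *Hspa1b* were identical to those of *Hspa1a* at 247 positions and differed at 3, and *Hspd1* and *Hspe1* lie head to head, so that 1 stretch serves in the windows of both. With the start site counted as 0, the match GAAGATTC lay at -104 to -97 in *Hspa1a* and in *Hspa1b*. *Hspb1* held GAAGTTTC at -117 to -110 and GAACCTTC at -97 to -90. *Hspe1* held 3 overlapping matches from -89 to -72. The same letters on the other strand lay at -144 to -127 of 1 of the 2 annotated *Hspd1* starts (55087932), which lies inside the listed gene. The window of the other *Hspd1* start (55088243), at the listed 5′ end of the gene, held none. *Hsph1* held TTCTCGAA at -54 to -47 of the start used above (149636315), and its 3-unit match lay after that start, at 15 to 27. From its other annotated start (149636336) the same matches lay at -33 to -26 and 36 to 48. Both *Hsph1* starts lie inside the listed gene, which reaches to 149636498, so part of the printed stretch is within the gene. A match describes letters in the window and was not tested as a binding site.

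Libraries held between 19857701 and 20548571 expected counts, which are RSEM's estimated reads per gene. Levels are given in FPKM, which are per length and can be set against each other between genes, and differences were tested on the counts with edgeR's quasi-likelihood test and Benjamini-Hochberg adjustment over 12943 genes, called at an adjusted p of 0.05. Neither group holds a library deposited again: chi-square divided by its degrees of freedom was 7.27 between the controls and 2.77 between the NaBu libraries, where counting noise alone gives about 1. The labels do not say whether libraries came from separate animals or cultures, so p-values measure only how these samples vary, which can be technical variation. Marker genes of CD8+ T cells were abundant, with a summed FPKM of 2540.3 to 2656.34 over 7 genes in all 4 libraries. Of these 7, 5 were called lower with NaBu (*Cd8a*, *Cd8b1*, *Cd3d*, *Cd3e* and *Lck*), *Cd3g* was called higher, and *Thy1*, the largest part of the sum, did not pass. *Cd8b1* went from 217.85 and 215.13 to 155.14 and 155.16, and *Cd8a* from 118.38 and 115.87 to 93.88 and 96.96. In bulk RNA, fewer cells of a type and less RNA per cell cannot be told apart.

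The 10 members differed in their response to NaBu. The 3 members with the lowest levels, *Hspb1*, *Hspa1a* and *Hspa1b*, rose 9.26-fold to 22.4-fold but stayed at an FPKM below 4. *Hspa8*, *Hsp90aa1*, *Hsp90ab1* and *Hspd1* fell 1.35-fold to 1.61-fold, and *Hsf1* itself was 1.19-fold lower. *Hspe1*, which was about as abundant as *Hspd1*, and *Hsph1* did not pass the test. All 10 members passed the filter on low counts, but *Hspb1* and *Hspa1a* did so only through the NaBu libraries and so had to differ to be tested. With no such filter their edgeR adjusted p was 0.00486 and 0.011. Of the 10 members, 3 were called higher and 5 lower. Among all genes tested 68.6% were called, 34.5% higher and 34.1% lower, so the number of members called was near the background. The median log2 fold change of the members was -0.12, against 0.005 over all genes tested. The FPKM of the groups did not overlap for 8 members, nor for 84.0% of all genes tested. The 3 higher members rose more than 2-fold, as did 14.9% of all genes tested (23.1% in either direction). Against a null of a 1.5-fold change (edgeR's glmTreat), the same 3 members passed and none of the 5 lower ones did (1 at an unadjusted p under 0.05), while 29.2% of all genes tested passed.

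**Figure D1:**
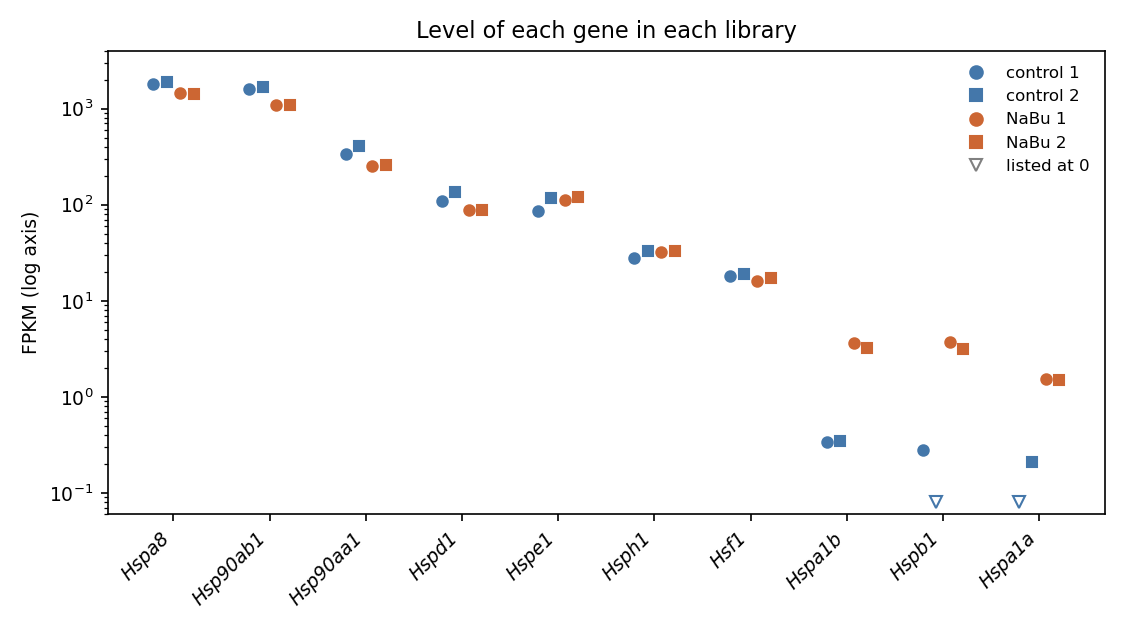
FPKM (log axis) of each of the 10 genes in each library, ordered by the control mean, with blue for control and orange for NaBu, circles for replicate 1 and squares for replicate 2, and open triangles for a gene listed at 0. The levels span from *Hspa8*, at 1782.73 in control 1, to *Hspa1a* and *Hspb1*, listed at 0 in 1 control library each.

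The factor, *Hsf1* (gene 15499, mm10 chromosome 15, 76477362 to 76501155), was at 18.0 and 19.23 FPKM in control 1 and control 2, and at 16.07 and 17.34 in NaBu 1 and NaBu 2. Both NaBu libraries were below both controls, by a margin smaller than the gap between the libraries of a group. The log2 change was -0.25 ± 0.08 (SE; edgeR adjusted p = 0.0182). The call was lost in 8 of 15 alternatives, among them on library totals (-0.16, edgeR adjusted p = 0.113), with DESeq2 (adjusted p = 0.0672), with limma on log2 FPKM (adjusted p = 0.122 to 0.145) and without either NaBu library (edgeR adjusted p = 0.197 without NaBu 1 and 0.0593 without NaBu 2).

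Among the inducible genes, *Hspa1b* (gene 15511, chromosome 17, 34956429 to 34959238) and *Hspa1a* (gene 193740, chromosome 17, 34969359 to 34972156) encode near-identical HSP70 proteins and lie 10120 bases apart. *Hspa1b* had 19.49 and 20.56 expected counts in control libraries and 206.28 and 181.25 after NaBu, which is 0.34 and 0.35 FPKM against 3.68 and 3.23. *Hspa1a* was listed at 0 in control 1 and had 12.12 counts in control 2, against 85.79 and 83.23 with NaBu, or an FPKM of 0 and 0.21 against 1.54 and 1.49. For both genes the NaBu libraries stood far above the controls and close to each other. The log2 fold change was 3.21 ± 0.19 (SE) for *Hspa1b* (edgeR adjusted p = 1.66e-07) and 3.73 ± 0.54 (SE) for *Hspa1a* (edgeR adjusted p = 0.000111). The *Hspa1a* call was not made by DESeq2 (adjusted p = 0.117), and its size rests on 1 control library: the log2 fold change was 2.75 without control 1, and 9.38 without control 2, where the remaining control is at 0 and the value depends on the prior count.

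Of the 50-base stretches of the *Hspa1b* transcript, 62.3% also occur in *Hspa1a*, so the division of reads between both rests on the estimation step of RSEM. Their sum also rests on it in part, since 66.3% of the *Hspa1a* stretches occur in some other gene but 58.8% in *Hspa1b*. The summed counts were 19.49 and 32.68 in the controls and 292.07 and 264.48 with NaBu. Tested as 1 gene, the sum rose by 3.36 ± 0.2 (log2, SE; edgeR adjusted p = 1.37e-07). On library totals this is 11.0-fold, with an exact binomial 95% interval of 8.29 to 15.0 that covers counting error alone. *Hspa1l* is the neighbouring HSP70 gene known for expression in testis (chosen after its values were seen). It stood at 0.31 and 0.41 FPKM in control and at 0.39 and 0.57 in NaBu libraries and did not pass the test (edgeR adjusted p = 0.408). Its expected counts were not whole numbers (15.51 and 20.32 in control, 18.93 and 27.52 in NaBu libraries). So its value also rests on the division of reads by RSEM.

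*Hspb1* (gene 15507, chromosome 5, 135887919 to 135889563), encoding the small heat shock protein HSP25, had 5 counts in control 1 and none (0) in control 2, but 66 and 56 in NaBu 1 and NaBu 2. In FPKM it went from 0.28 and 0 to 3.72 and 3.16. It was close to absent in the controls and low but present in both NaBu libraries. The log2 fold change was 4.49 ± 0.54 (SE; edgeR adjusted p = 3.02e-05). The fold on library totals was 25.1, with an exact binomial 95% interval of 10.5 to 78.8. Without control 2 the log2 fold change was 3.51, and without control 1, which leaves a control at 0 and a value set by the prior count, it was 8.92. Of its 50-base stretches 58.9% also occur in the pseudogene *Hsp25-ps1*, which has no value here.

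Markers of other cell types also differed between the groups. Of 10 myeloid and dendritic cell markers chosen, 8 were listed in these data, and *Csf1r* and *Lyz2* were not listed in any library. The summed FPKM of the 8 was 16.57 and 15.03 in the controls and 40.51 and 38.47 with NaBu. Of 5 tested genes 4 were higher and *Xcr1* was lower. Most of that sum was *Cd68*, which rose from 11.37 and 9.59 to 28.38 and 27.13. *Itgam* rose from 0.45 and 0.45 to 4.83 and 3.79 (log2 fold change 3.16). *Mpeg1* rose from 0.2 and 0.39 to 1.96 and 1.86 (2.59), and *Itgax* from 2.24 and 2.42 to 4.24 and 4.66. The 3 of these 8 markers that were not tested, *Adgre1*, *Flt3* and *Cd14*, were between 0 and 0.21 in the 4 libraries. Among 6 red cell, endothelial and stromal genes, 3 were tested: *Hba-a1* rose from 1.0 and 0.81 to 6.59 and 7.24, *Col1a1* rose from 0.04 and 0.11 to 0.54 and 0.54, and *Pecam1* fell from 20.83 and 21.93 to 16.96 and 16.25. Of those not tested, the red cell gene *Hbb-bs* was at 0.16 and 0.48 in the controls and listed at 0 in both NaBu libraries, and *Hbb-bt* and *Cdh5* were between 0 and 0.16. The stromal markers *Col3a1* and *Pdpn*, also chosen, were not listed in any library. The part of these in the rise of *Hspb1*, *Hspa1a* and *Hspa1b* was not tested.

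The constitutive HSP70, *Hspa8* (gene 15481, chromosome 9, 40801276 to 40805202), was the most abundant member, ranking 27 of all genes by mean FPKM in the controls and 42 with NaBu. Its FPKM was 1782.73 and 1874.98 in the controls and 1467.43 and 1435.81 with NaBu. Both NaBu libraries were below both controls, and the gap between the groups was larger than the gap within either. Of its 50-base stretches 74.8% also occur in other genes, as do 58.5% of those of *Hsp90aa1*. For both, 0.0% occur in another gene that has a value here. Their counts are uncertain to the extent that they hold reads of those other genes, which was not tested. The log2 change was -0.43 ± 0.07 (SE; edgeR adjusted p = 0.000341).

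Set against *Hspa8* within each library, the sum of *Hspa1a* and *Hspa1b* came to 0.0191% and 0.0299% of its FPKM in the controls and 0.356% and 0.329% with NaBu. The ratio did not overlap between groups, yet the inducible genes stayed below 1% of the constitutive gene in every library. With 2 libraries a group an exact permutation test cannot give a two-sided p below 0.333, so ratios are described and not tested.

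The HSP90 genes fell to a like extent. *Hsp90ab1* (gene 15516, chromosome 17, 45567778 to 45573261), the constitutive form, stood at 1593.5 and 1666.68 FPKM without NaBu and at 1078.34 and 1081.65 with it. Its log2 fold change was -0.69 ± 0.07 (SE), with an edgeR adjusted p of 9.69e-06. *Hsp90aa1* (gene 15519, chromosome 12, 110691036 to 110696395), the form known as inducible, had 340.94 and 407.55 in the controls and 253.55 and 258.2 with NaBu. Its log2 fold change was -0.65 ± 0.09 (SE; edgeR adjusted p = 5.96e-05). The controls of *Hsp90aa1* lay further apart than those of *Hsp90ab1*, and neither gene had overlapping groups.

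The ratio of *Hsp90aa1* to *Hsp90ab1* in FPKM was 0.214 and 0.245 in the controls and 0.235 and 0.239 with NaBu. Here the NaBu libraries fell between the controls, so no shift between the forms was detectable with these libraries. The inducible HSP90 gene was thus lower where the inducible HSP70 genes were higher.

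**Figure D2:**
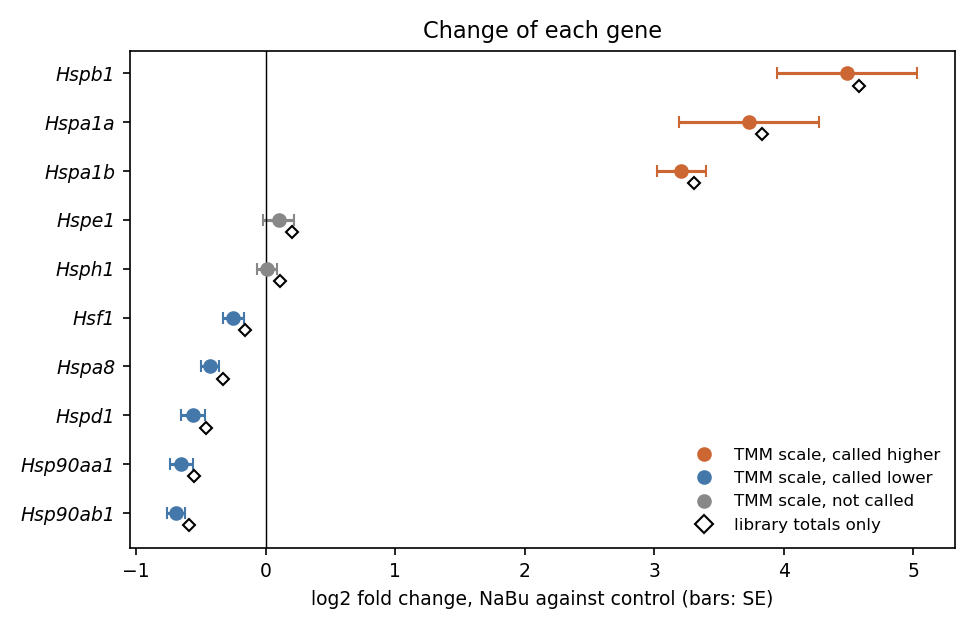
log2 fold change of NaBu against control for each gene on the TMM scale (filled circles, bars show the SE, orange for called higher, blue for called lower, gray for not called) and on library totals (open diamonds). On the TMM scale *Hspb1*, *Hspa1a* and *Hspa1b* lie between 3.21 and 4.49, and the other 7 genes between -0.69 and 0.1.

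Of the mitochondrial chaperonin genes, *Hspd1* fell and *Hspe1* did not pass the test. *Hspd1* (gene 15510, chromosome 1, 55077833 to 55088243) was at 108.81 and 135.4 FPKM in control libraries and at 88.48 and 89.05 with NaBu, with both NaBu libraries below both controls. Its log2 change was -0.56 ± 0.09 (SE; edgeR adjusted p = 0.000295). *Hspe1* (gene 15528, chromosome 1, 55088148 to 55091317) had 85.56 and 117.35 in the controls and 111.6 and 120.93 with NaBu, and its groups overlapped. Its log2 fold change of 0.1 ± 0.12 (SE) did not pass (edgeR adjusted p = 0.478).

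The outcome for *Hspe1* turned on the controls. Without control 1 the log2 fold change was -0.12 (edgeR adjusted p = 0.153), and without control 2 it was 0.34 and passed (edgeR adjusted p = 0.00405). The ratio of *Hspd1* to *Hspe1* in FPKM was 1.27 and 1.15 in the controls and 0.793 and 0.736 with NaBu, with no overlap. *Hspd1* thus stood above *Hspe1* within each control library and below it within each NaBu library. These genes share 96 bases at their 5′ ends, where reads cannot be assigned without strand. Of the 50-base stretches of each, 44.8% also occur in other genes. For *Hspe1* 8.7% occur in another gene that has a value here, against 0.0% for *Hspd1*.

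**Figure D3:**
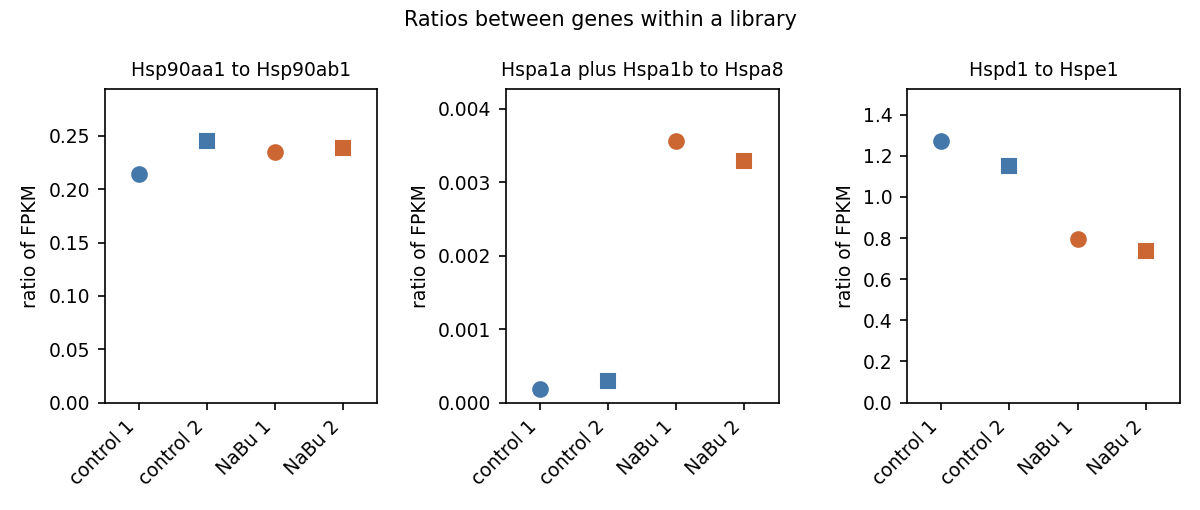
Ratio of FPKM within each library for *Hsp90aa1* to *Hsp90ab1*, for the sum of *Hspa1a* and *Hspa1b* to *Hspa8* and for *Hspd1* to *Hspe1*, with axes from 0, blue for control and orange for NaBu. The first ratio overlaps between groups (0.214 to 0.245), the second is higher with NaBu and the last is lower (0.793 and 0.736 against 1.27 and 1.15).

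*Hsph1* (gene 15505, chromosome 5, 149616843 to 149636498), the HSP110 gene, was at 27.65 and 32.68 FPKM in control libraries and at 32.43 and 32.63 with NaBu. The NaBu libraries fell between the controls. Its log2 fold change was 0.01 ± 0.08 (SE), with an edgeR adjusted p of 0.9.

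Control 2 carried more chaperone transcript than control 1. Of the 7 members with a mean FPKM of 10 or more, all 7 had a higher CPM (counts scaled to the TMM-adjusted library total) in control 2, by 1.048 times for *Hsp90ab1* to 1.374 times for *Hspe1*. Among the 6211 tested genes at that level the median of this ratio was 1.007, the 5th percentile 0.851 and the 95th 1.176, and 52.6% were higher in control 2. *Hsp90aa1* (1.198 times), *Hsph1* (1.185), *Hspd1* (1.247) and *Hspe1* were above that 95th percentile. Between the NaBu libraries the same 7 genes differed by 0.98 to 1.085 times. *Hsp90aa1*, *Hspd1*, *Hsp90ab1* and *Hspa8* were called lower without either control library.

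**Figure D4:**
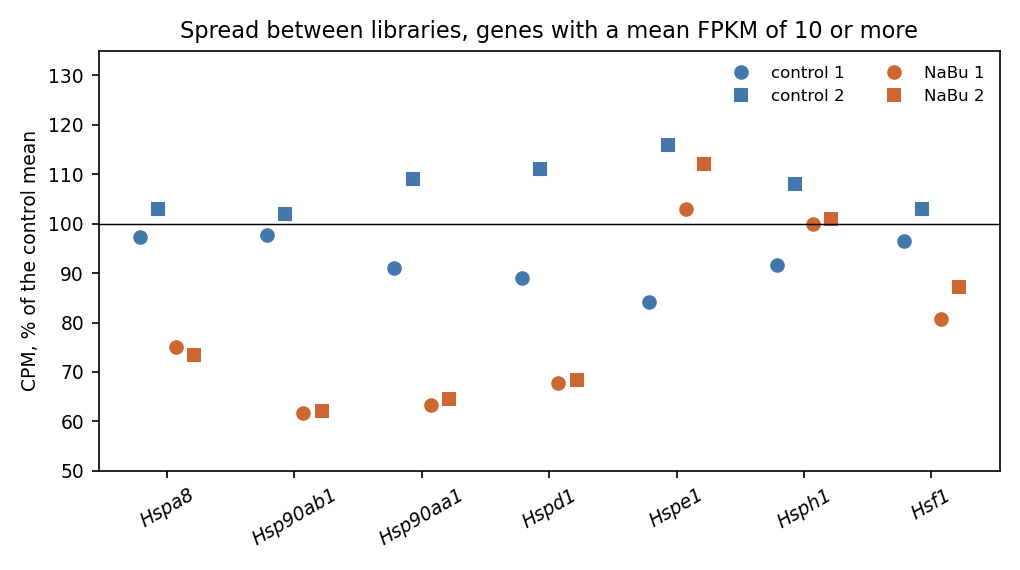
CPM in each library as a percentage of the control mean for the 7 members with a mean FPKM of 10 or more, with blue for control, orange for NaBu, circles for replicate 1 and squares for replicate 2; the axis starts at 50%. Control 2 is above control 1 for each gene, and for *Hspe1* the controls, at 84.2% and 116.0%, enclose both NaBu libraries.

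By mean FPKM the order in the controls was *Hspa8*, *Hsp90ab1*, *Hsp90aa1*, *Hspd1*, *Hspe1*, *Hsph1*, *Hsf1*, *Hspa1b*, *Hspb1* and *Hspa1a*. Neighbours overlapped for *Hspd1* with *Hspe1* and for *Hspb1* with *Hspa1a*. With NaBu *Hspe1* preceded *Hspd1* without overlap, and *Hspa1b* and *Hspb1* overlapped. The 10 genes together held 0.919% and 0.987% of all counts in the controls and 0.699% and 0.695% with NaBu, of which *Hspa8*, *Hsp90aa1* and *Hsp90ab1* made up 93.3% to 95.0%. Each of these 3 genes was called lower.

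The rest of the chaperone network was described with 9 lists of 120 genes, of which 104 were tested. Of these, 33 were higher, 40 lower and 31 not called (70.2% called, against 68.6% of all genes), with a median log2 fold change of 0.04. On library totals 44 were higher and 31 lower, against 5175 higher and 3720 lower among all genes tested. The share called and the median lay close to those of all genes tested.

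Of 3 tested heat shock factor genes and regulators, 2 rose and 1 fell. *Hsf2*, a factor known from development and for partnering HSF1, rose 1.32-fold (FPKM 4.24 ± 0.665 to 5.99 ± 0.042, the SD is over n = 2 libraries here and below). It no longer passed without control 1 (edgeR adjusted p = 0.077) or without either NaBu library. *Hsf4*, known from the lens, fell 1.5-fold, and *Hsbp1*, encoding a small protein that binds HSF1 trimers, rose 1.31-fold.

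Of 11 other HSP70 and HSP110 genes, 5 rose and 2 fell. *Hspa2*, an HSP70 gene known from spermatogenesis, rose 3.73-fold, from 2.02 ± 0.071 to 8.10 ± 1.03, and *Hspa14* 1.24-fold. The largest rise, 8.16-fold, was that of *Hspa12a*, from a mean FPKM of 0.07 to 0.635 (named after its values were seen). *Hspa5*, encoding the HSP70 of the endoplasmic reticulum, rose 1.17-fold, from 206 ± 17.8 to 257 ± 1.17, which was lost without either NaBu library (edgeR adjusted p = 0.133 and 0.15). *Hspa9*, encoding the mitochondrial HSP70, fell 1.42-fold, from 118 ± 10.7 to 88.3 ± 0.764, and *Hspa4l*, an HSP110 gene, 1.84-fold.

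J-domain proteins deliver substrates to HSP70. Of 14 tested DNAJA and DNAJB genes, 5 rose and 4 fell (5 and 2 with median-of-ratios factors, 7 and 2 on library totals). *Dnaja1*, a main cytosolic partner of HSP70, fell 1.37-fold and *Dnajb12* 1.38-fold, while *Dnajb4* rose 1.3-fold and *Dnajb14* 2.34-fold to an FPKM of 1.83 ± 0.148. *Dnajb1*, a classical HSF1 target encoding HSP40, was 1.11-fold lower (edgeR adjusted p = 0.0442), at 26.17 and 26.6 FPKM in control libraries and 25.91 and 24.9 with NaBu, and lost its call in 12 of 15 alternatives. Of 25 tested DNAJC genes, 9 rose and 8 fell. *Dnajc28* rose 7.12-fold from a low level and *Dnajc12* 2.67-fold, and *Dnajc2*, a ribosome-bound chaperone, and *Dnajc17* fell 1.62-fold and 1.63-fold. The largest rise among the DNAJC genes, 21.1-fold, was that of *Dnajc6*, from a mean FPKM of 0.01 to 0.235 (named after its values were seen).

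Of 9 nucleotide exchange factors and BAG proteins, 4 rose and 4 fell (5 and 2 on library totals). Those that rose include *Grpel1* and *Grpel2*, the exchange factors of the mitochondrial HSP70 (named after their values were seen), at log2 fold changes of 0.25 and 0.28 (edgeR adjusted p = 0.0149 and 0.0302). *Bag3*, an HSF1-regulated gene whose product joins HSP70 to small heat shock proteins, was at 5.2 and 5.73 FPKM in control libraries and at 11.41 and 10.91 with NaBu. Its log2 change was 0.93 ± 0.09 (SE; edgeR adjusted p = 6.44e-06). *Bag5* rose 1.26-fold, which was lost without NaBu 1 (edgeR adjusted p = 0.217) or without control 2 (0.0671), and *Hspbp1* and *Sil1*, an exchange factor of the endoplasmic reticulum, fell 1.51-fold and 1.45-fold.

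Of 19 other HSP90 paralogs and co-chaperones, 12 fell and 5 rose (median log2 change -0.29). *Hsp90b1*, encoding the HSP90 of the endoplasmic reticulum, fell 1.57-fold, from 329 ± 32.9 to 224 ± 1.90, close to the folds of *Hsp90aa1* and *Hsp90ab1*. *Ahsa2*, a homologue of an HSP90 ATPase activator, fell 1.53-fold. *Sugt1*, an HSP90 co-chaperone of immune receptors and kinetochores, rose 1.52-fold. *Stip1*, which joins HSP70 to HSP90, did not pass (FPKM 119 ± 5.93 and 122 ± 4.14, edgeR adjusted p = 0.39).

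Of 14 tested genes of the cytosolic chaperonin TRiC and of prefoldin, which hands it nascent actin and tubulin, 6 fell and 2 rose (5 and 4 on library totals). *Cct3* and *Cct6a*, chaperonin subunits, fell 1.38-fold and 1.3-fold, and the prefoldin genes *Vbp1* and *Pfdn5* moved apart, 1.36-fold lower and 1.37-fold higher. Of 2 tested further genes named as small heat shock proteins, *Hspb6* fell 2.75-fold, opposite to *Hspb1*, and *Hspb11*, whose product is a ciliary transport protein despite its name, rose 1.91-fold. Of 7 other mitochondrial chaperone and protease genes, *Lonp1*, a matrix protease, fell 1.41-fold and *Htra2* 1.17-fold and none was called higher (on library totals 2 were higher and 1 lower, *Htra2* no longer passing at an edgeR adjusted p of 0.212).

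**Figure D5:**
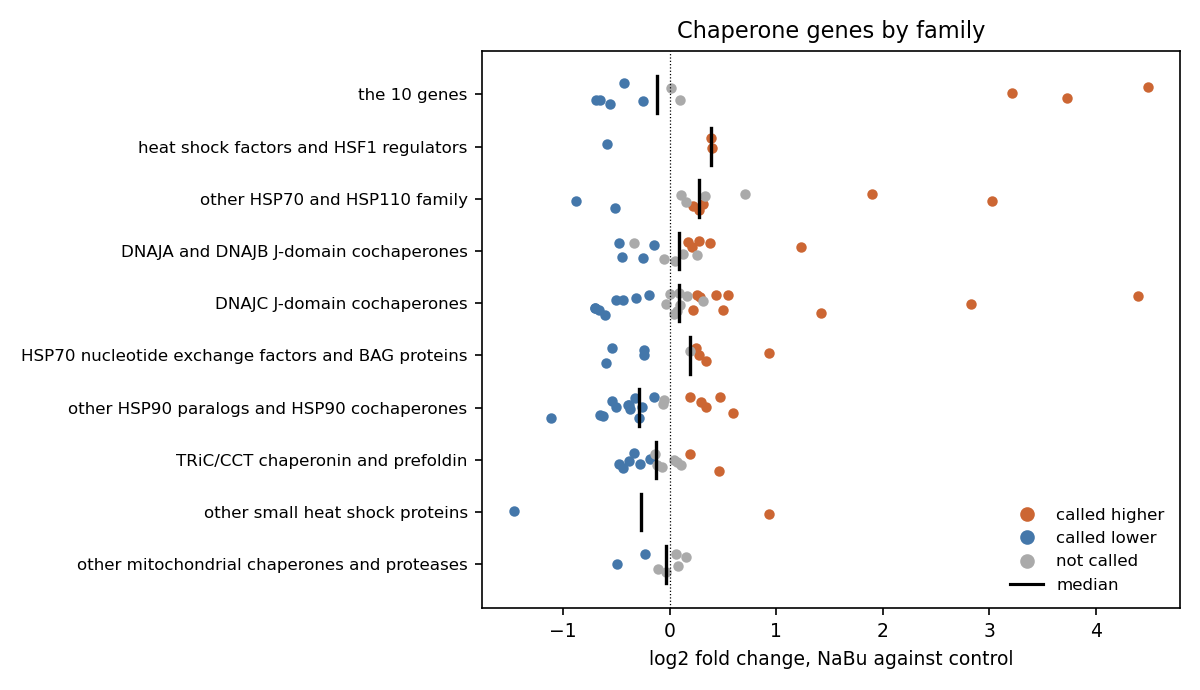
log2 fold change of NaBu against control for each tested gene of the 10 members and of the 9 chaperone lists, with orange for called higher, blue for called lower, gray for not called and a black line at each median. The medians lie between -0.29 and 0.39, and *Hspb1* (4.49) and the other 2 higher members stand at the right end of their row.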

How the data were processed

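The 4 RNA-seq libraries, 2 per group, were analysed from the expected counts per gene that the authors deposited and from the FPKM that the authors deposited beside them, and gene lengths were used as in the deposited files. Bowtie2, RSEM and the mm10 genome are named in the submitters' processing notes, without version or settings. Groups were taken from the sample labels. RSEM's expected counts are estimates that divide reads between near-identical genes, and were rounded to whole numbers for the tests. FPKM values are per length and are used for levels.

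Genes passing edgeR's filterByExpr (12943 genes, with 99.95% of counts) entered the quasi-likelihood test of edgeR 4.0.16 (R 4.3.3) with TMM normalization, with 2 residual degrees of freedom and a common biological coefficient of variation of 0.0524. The SE of a log2 fold change was derived from that test. Tests of simulated counts with 2-fold changes called 93.8% of 64 genes, and with 1.5-fold changes 79.1% of 67, in a run on 12727 genes. In that run 12531 genes were left unchanged, while 68.6% of genes were called in the data. These shares therefore do not give the sensitivity of the test in the data. Alternatives used limma 3.58.1 on log2 FPKM with a pseudocount of 1 or 0.1, limma-voom, DESeq2 1.42.0, other scalings and filters, and fits without each library. Intervals cover counting error only. Library totals shift the median log2 fold change of all genes by 0.097 relative to TMM.

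The members, gene lists and marker lists were chosen with earlier results of these data known. Besides the members, the text names up to 4 called genes per list by size of log2 fold change, whose higher group averaged at least 1 FPKM, and *Hsf2*, *Hspa5*, *Hspa9*, *Hsp90b1*, *Dnajb1*, *Bag3* and *Stip1*; 1 gene that this rule names is not reported here. Shared 50-base stretches were counted over GENCODE M21 transcripts, and promoters came from RefSeq windows.

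Summed FPKM of the other marker lists, in the order control 1, control 2, NaBu 1 and NaBu 2, was 21.36, 19.6, 27.09 and 27.18 for CD4 T cells, 5.77, 4.13, 2.62 and 1.96 for B cells, 10.74, 9.55, 4.94 and 5.62 for NK cells and 22.03, 23.34, 24.25 and 24.04 for stromal, endothelial and red cells.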

Additional observations from a re-analysis of the deposited data

How the results depend on the processing

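The number of genes called was within 1.5 times of 8884 in 14 of 15 alternatives. With edgeR's glmTreat against a 1.5-fold change, 3779 genes passed (2214 higher and 1565 lower), as did 3 members with 0 lower, and 11 genes of the chaperone lists (8 higher and 3 lower), since that test asks for a larger change. Members called higher came to 1 with a filter of at least 5 CPM, which leaves *Hspb1* and *Hspa1a* untested. Members called lower came to 3 with limma on log2(FPKM + 1) and no filter, and the cause was not tested. Leaving out 1 library gave 7 to 9 members called and 46 to 68 genes of the chaperone lists (17 to 35 higher), the lowest without NaBu 1, where a group has 1 library that is assumed to vary like the other group.

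The sign turned for genes that were not called. *Hspe1* ranged from -0.12 to 0.34 with 1 library left out, and *Hsph1* from -0.11 to 0.13, and *Hsph1* was -0.01 with no filter on low counts. *Stip1* was 0.03 on library totals and with the 3 limma fits on log2 FPKM. None of these fits used TMM factors, and on library totals the median log2 fold change of all genes lay 0.097 above that with TMM. The summed *Hspa1a* and *Hspa1b* counts kept their direction and call in all 15 alternatives.

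Deviations of same-numbered libraries from their group means did not correlate over genes (-0.031). With 2 libraries a group this check cannot tell whether same-numbered libraries share a culture or batch. The fit with the replicate block called 8853 genes, 8 members and 68 genes of the chaperone lists. With 2 libraries a group, and 5 and 12 summed control counts for *Hspb1* and *Hspa1a*, the sizes of these rises are imprecise.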
